A study of Mus musculus with 8 samples.

Results

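The nuclear RNA polymerases were followed through the transcripts of their subunits in regenerating mouse liver. Members were the rows of the deposited table whose symbol begins with Polr1, Polr2 or Polr3 and a further letter and whose value was at least 10 in at least 3 libraries. This gave 31 of the 19055 rows of the table, and each row that matched the pattern also passed the filter. Of these, 29 encode core subunits: 5 belong to polymerase I alone, 2 to polymerases I and III, 7 to polymerase II alone, 5 to all 3 enzymes and 10 to polymerase III alone. The remaining rows were Polr2m, which encodes the polymerase II associated protein GDOWN1, and Polr1has, named as an antisense transcript of Polr1h. Crcp, a polymerase III subunit, and Cd3eap, the older symbol of a polymerase I subunit, do not match the pattern and are given apart.

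Livers were taken 48 hours after partial hepatectomy from mice aged 8 to 9 weeks. The 3 controls had the genotype URI(+/+)Hep and were wild-type littermates, and the 5 other livers had the genotype URI(+/D)Hep, a loss-of-function model made with a tamoxifen-inducible Cre under serum albumin control, which acts in hepatocytes. All mice had received tamoxifen for 1 week, and +/D is written as 1 wild-type and 1 D allele. Cells other than hepatocytes are not targeted by such a driver but contribute RNA to whole liver. Libraries were made by oligo-dT priming and sequenced from the 3′ ends of transcripts.

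Polymerase I transcribes the large ribosomal RNA precursor, polymerase II transcribes messenger RNAs, and polymerase III makes transfer RNAs, the small 5S ribosomal RNA and other short RNAs. Each is built around a pair of very large catalytic subunits, held on a scaffold of smaller subunits of which several are common to all of the enzymes. The URI protein binds RPB5, a common subunit encoded by Polr2e, and belongs to a prefoldin-like complex that works with the R2TP chaperone in assembling polymerases. Regrowing liver makes large amounts of ribosomes, which draws on all of the polymerases. Assembly acts on proteins, whereas the values here are transcript levels.

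Depth ranged from 3838674 to 4800694 reads per library, and 3 reads correspond to 2.65 to 3.60 normalized reads. Hepatocyte markers summed to 28814 to 32372 normalized reads in controls and 28792 to 31967 in URI(+/D)Hep livers, with all 8 markers detected in each library. The labels call the cells epithelial, but all 6 endothelial, all 5 Kupffer cell and macrophage, all 6 stellate and all 5 neutrophil markers were detected in each library as well. The endothelial sum was 1579 to 2019 in controls and 2155 to 2377 in URI(+/D)Hep livers, without overlap, and the sum of 3 B cell markers was 10.8 to 56.1 against 64.8 to 107. The ranges of the cholangiocyte, macrophage, stellate, neutrophil, and T and NK cell sums overlapped. Mki67, a marker of dividing cells, was lowest in control 1 and URI(+/D)Hep 5, at 24.0 and 49.5, against 268 to 586 in the other 6 livers. Controls 1 and 2 held under 10 normalized reads of Xist, and each other library held at least 1217, while Y-linked transcripts were near 0 in URI(+/D)Hep 1 alone. Low Xist was thus seen in controls only. Control 3 and URI(+/D)Hep 2 to 5 held both Xist and Y-linked reads, with Y-linked sums of 569 to 1002. The labels do not name the animals, so such a library may not be 1 animal. The word liver stands for a library here, and n counts libraries. The part of these differences in the results below was not tested beyond the alternative fits that are given. In whole tissue, fewer cells of a type and less RNA per cell cannot be told apart.

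Uri1 did not separate the groups. Controls 1 to 3 stood at 468, 374 and 310.0 normalized reads and the URI(+/D)Hep livers between 328 and 437, with an exact two-sided permutation p of 0.982. Reads from the 3′ end need not report a deletion elsewhere in the gene, so the groups are named by their labels.

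No polymerase row passed the test across all genes. The fit was limma on log2(value + 1) over 13704 genes, with Benjamini-Hochberg adjustment, and a call needs an adjusted p under 0.05. Of the 31 rows, 0 were called, against 2 genes (0.0146%) among all genes, and the smallest adjusted p was 0.147, for Polr3d. At an unadjusted p under 0.05, 7 members were lower in URI(+/D)Hep livers, against 9.33% of all genes, and 1 was higher, against 8.35%. On recovered reads 0 members were called in edgeR, against 0.0219% of all genes, and 0 of the 25 members with an adjusted p in DESeq2, against 6.67%. At an unadjusted p under 0.05, 7 members were lower and 1 higher in edgeR, against 10.3% and 7.38% of all genes. DESeq2 also had 7 lower and 1 higher, against 9.35% and 7.74%. The smallest adjusted p was 0.141 in edgeR, for Polr2e, and 0.0598 in DESeq2, for Polr3k. All 5 URI(+/D)Hep livers lay below all 3 controls for 8 members, against 7.3% of all genes, and above them for 2 members, against 6.13%. The 8 include Polr2k, which passed the filter mainly through the controls, and 7 remain without it.

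**Figure D1:**
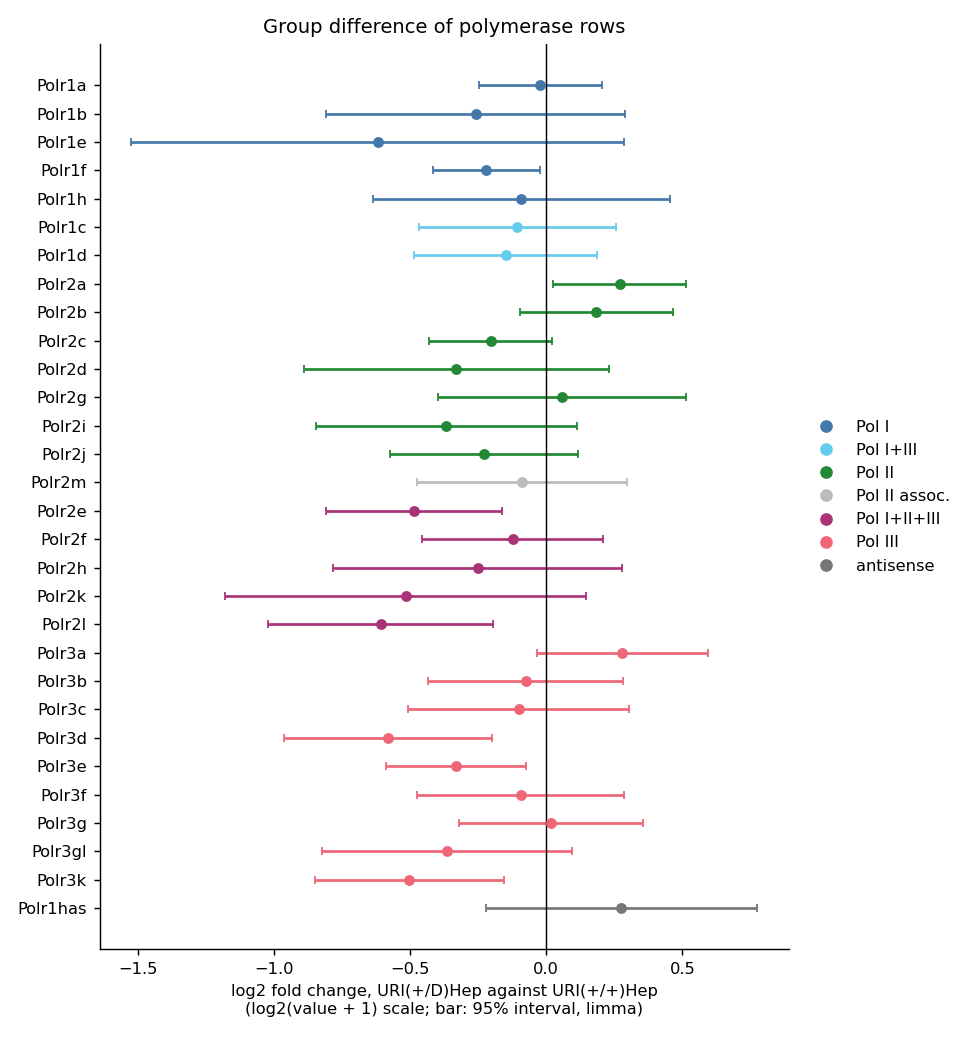
Log2 fold change of 30 of the 31 rows, URI(+/D)Hep against URI(+/+)Hep, on the log2(value + 1) scale, with 95% limma intervals and colours for the enzyme each subunit belongs to. Most points lie left of 0, from -0.62 for Polr1e, and the points farthest right are Polr3a at 0.28, the antisense row Polr1has at 0.28 and Polr2a at 0.27.

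Most core subunits had a lower mean log2 value in the URI(+/D)Hep livers. Of the 29, 24 were negative on the log2 scale and the median difference was -0.22, while over all genes tested 50.2% were negative and the median was -0.0019. Every class had a negative median in this fit, from -0.13 for the pair shared by polymerases I and III to -0.49 for the subunits common to all 3 enzymes, though that of the I and III pair was 0.04 without control 1. The medians were -0.22 for polymerase I, -0.20 for polymerase II and -0.22 for polymerase III. Without control 1 the median of the core subunits was -0.11 and 17 of 29 were negative. With control 3 as the 1 control against URI(+/D)Hep 2 to 5, the livers that hold both Xist and Y-linked reads, the median was -0.08 and 18 were negative. Polr2k did not pass the filter in that fit and is not in this count.

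The subunits common to all 3 polymerases had the most negative median of the 5 classes in the fit to all livers. This order was lost without the livers of lowest Mki67, where polymerase I was at -0.25 and the common subunits at -0.20, and in the 5 livers holding both Xist and Y-linked reads, at -0.26 and -0.21. Polr2k was in neither of these fits, and without it the common median in the fit to all livers was -0.37. Polr2e, which encodes the URI-binding subunit RPB5, stood at 148, 124 and 145 normalized reads in controls 1 to 3. In URI(+/D)Hep 1 to 5 it stood at 114, 103, 83.1, 90.9 and 105. The highest URI(+/D)Hep liver was below the lowest control. The means were 139 ± 12.8 (SD, n = 3) and 99.1 ± 12.2 (SD, n = 5), a 0.71-fold level. The log2 fold change was -0.49 ± 0.14 (SE, 95% interval -0.81 to -0.16, adjusted p = 0.149 in limma). In an exact two-sided permutation test of Polr2e alone p was 0.0179, which is the smallest that 56 splits allow. A p this small requires separated ranges, as given above, so the test adds little to them. Over all genes, 7.3% had separated ranges lower and 6.13% higher. Over 25 alternative settings the log2 fold change of Polr2e lay between -0.60 and -0.40, and it did not pass the threshold in any of them.

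Polr2l encodes RPB10, a small zinc-binding protein of the common scaffold. It stood at 443, 385 and 345 normalized reads in the controls, and at 221, 223, 361, 218 and 276 in URI(+/D)Hep 1 to 5. URI(+/D)Hep 3 lay above control 3, so the ranges overlapped, and the other 4 livers were below every control. The log2 fold change was -0.61 ± 0.18 (SE, with adjusted p = 0.153 in limma), and -0.73 without URI(+/D)Hep 3.

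Polr2k, for RPB12, stood at 11.99, 12.8 and 12.9 in the controls and between 6.56 and 11.9 in the other livers. This rests on 7 to 13 reads per library, and Polr2k reached the filter level of 10 in the 3 controls and 1 other library. Without Polr2k the median of the 4 remaining common subunits was -0.37. Polr2h, for RPB8, was at 97.1 in control 1 but at 49.2 and 51.5 in controls 2 and 3, within the range of 46.3 to 58.1 of the URI(+/D)Hep livers. Polr2f, for RPB6, followed the same outline, with 325 in control 1 and 222 and 234 in the other controls against 209 to 263. For these last subunits, control 1 alone was high. Without control 1 the median of the common subunits was -0.44. Without control 1 and URI(+/D)Hep 5, the livers of lowest Mki67, it was -0.20, over the 4 subunits other than Polr2k, which did not pass the filter there.

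**Figure D2:**
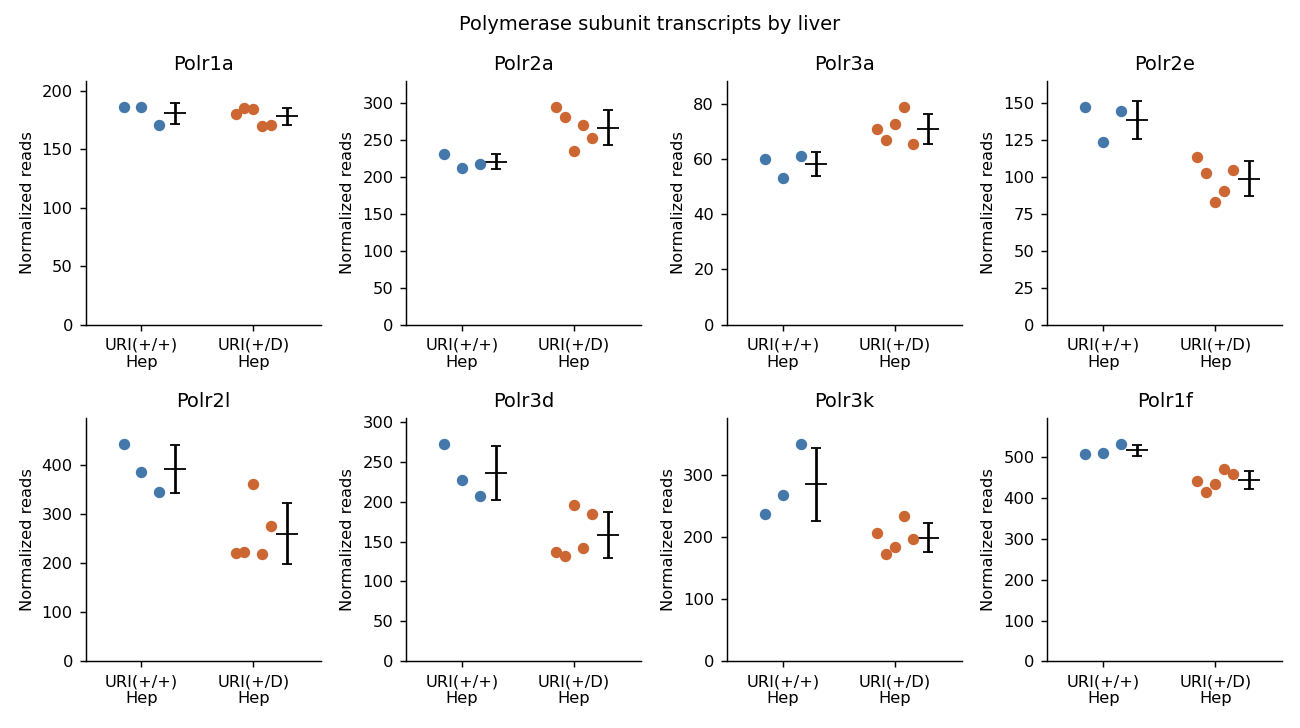
Normalized reads of 8 subunit transcripts in each liver, with one point per library, 3 URI(+/+)Hep and 5 URI(+/D)Hep, and the mean ± SD beside the points. Polr2e, Polr3d, Polr3k and Polr1f lie lower without overlap in the URI(+/D)Hep livers and Polr2l lies lower with overlap, while Polr2a and Polr3a lie higher without overlap and Polr1a is level.

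Among the 7 subunits of polymerase II alone, 4 had a lower and 3 a higher mean log2 value in the URI(+/D)Hep livers, and Polr2a had separated ranges. Polr2a encodes RPB1, the largest subunit, whose C-terminal repeats are phosphorylated during transcription. It stood at 231, 212 and 218 normalized reads in the controls. In URI(+/D)Hep 1 to 5 it stood at 294, 281, 235, 271 and 252. All 5 livers were above all 3 controls, though URI(+/D)Hep 3 exceeded control 1 only narrowly. The means were 220.3 ± 10.1 (SD, n = 3) and 267 ± 23.4 (SD, n = 5), with a log2 fold change of 0.27 ± 0.11 (SE, with adjusted p = 0.244 in limma). Polr2b, for RPB2, which forms the active site with RPB1, was at 169 to 218 in controls and 207 to 244 in URI(+/D)Hep livers, with a log2 fold change of 0.18 (95% interval -0.10 to 0.47).

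Polr2c and Polr2j encode the partners RPB3 and RPB11 on which assembly of the enzyme starts. Polr2c was at 332 to 384 in controls against 297 to 340.2, with a log2 fold change of -0.20, and Polr2j was at 144 to 194 against 116 to 161, with one of -0.23. The ranges of both overlapped. Polr2i, for RPB9, which acts in RNA cleavage and proofreading, had a log2 fold change of -0.37 with wide spread, from 72.2 to 136 within the URI(+/D)Hep livers alone. The stalk subunits RPB4 and RPB7 went separate ways within their errors: Polr2d had a log2 fold change of -0.33 (95% interval -0.89 to 0.23) and Polr2g one of 0.06 (95% interval -0.40 to 0.51). Polr2m ranged from 288 to 355 in controls and from 235 to 399.5 in the other livers, a wider span within 1 group than between the means.

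The upstream sequences of 3 polymerase II subunit genes are shown because Polr2a was higher and Polr2e and Polr2l lower in these livers. Each line holds the 250 bases before the annotated start, from RefSeq on GRCm38.p6, while the deposited values were made on GRCm39. They lie at chr11:69758634-69758883 (minus strand) for Polr2a, chr10:80039660-80039909 (minus strand) for Polr2e and chr7:141475154-141475403 (minus strand) for Polr2l. Capitals mark matches to any of the motifs listed with the polymerase III sequence.
Polr2a: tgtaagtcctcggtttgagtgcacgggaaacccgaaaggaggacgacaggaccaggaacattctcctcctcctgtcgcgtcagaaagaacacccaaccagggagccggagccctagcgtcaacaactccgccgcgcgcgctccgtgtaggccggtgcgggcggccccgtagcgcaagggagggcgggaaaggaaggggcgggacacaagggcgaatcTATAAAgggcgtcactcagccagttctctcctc
Polr2e: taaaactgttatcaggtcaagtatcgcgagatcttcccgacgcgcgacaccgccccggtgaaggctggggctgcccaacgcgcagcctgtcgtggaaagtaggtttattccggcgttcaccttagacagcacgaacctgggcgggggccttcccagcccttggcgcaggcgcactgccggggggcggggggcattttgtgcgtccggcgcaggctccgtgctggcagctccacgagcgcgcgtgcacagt
Polr2l: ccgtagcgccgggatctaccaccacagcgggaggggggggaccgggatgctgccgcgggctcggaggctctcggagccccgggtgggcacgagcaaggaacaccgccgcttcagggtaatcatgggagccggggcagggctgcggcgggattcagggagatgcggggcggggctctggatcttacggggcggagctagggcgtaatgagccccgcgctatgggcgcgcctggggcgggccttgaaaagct
The Polr2a window held TATAAA, from 33 to 28 bases before the start, and the Polr2e and Polr2l windows held none of the motifs. The GC content was 62.8% for Polr2a, 65.6% for Polr2e and 71.2% for Polr2l.

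Of the 10 polymerase III subunits, 4 were lower with separated ranges, against 7.3% of all genes, and 1 higher, against 6.13%. The share lower was the same, 40%, for polymerase I and for the common subunits, with 5 genes in each. That of the common subunits includes Polr2k, which passed the filter mainly through the controls. That of polymerase I includes Polr1e, on 5 to 19 reads. Polr3d and Polr3e encode RPC4 and RPC5, which join as a module in initiation and termination. Polr3d stood at 272, 227 and 207 normalized reads in controls 1 to 3. In URI(+/D)Hep 1 to 5 it stood at 137, 132, 195, 142 and 184. URI(+/D)Hep 3 and 5 came closest to control 3 without reaching it, and the log2 fold change was -0.58 ± 0.17 (SE, 95% interval -0.96 to -0.20, adjusted p = 0.147 in limma). Polr3e stood at 185, 155 and 153 in the controls and within a narrow band of 125 to 138 in the URI(+/D)Hep livers, with a log2 fold change of -0.33 ± 0.11 (SE, with adjusted p = 0.192 in limma). For both partners of the module the groups were apart.

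Polr3k encodes the small subunit that acts in RNA cleavage and termination. Its values were 237, 268 and 351 in controls 1 to 3 and 208, 173, 185, 234 and 198 in URI(+/D)Hep 1 to 5. Control 1 and URI(+/D)Hep 4 nearly met, and without control 3 the log2 fold change went from -0.50 to -0.34. Crcp, which encodes a further polymerase III subunit, does not match the symbol pattern and was singled out after its values were seen. Crcp had the other direction from Polr3k, with 40.8, 42.3 and 48.3 in controls and 55.7 to 70.3 in URI(+/D)Hep livers, and a log2 fold change of 0.47 ± 0.15 (SE, with adjusted p = 0.168 in limma).

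Polr3a encodes RPC1, the largest subunit. It stood at 60.0, 53.2 and 61.2 normalized reads in the controls and at 70.7, 66.7, 72.5, 78.7 and 65.3 in URI(+/D)Hep 1 to 5, all above the highest control. The log2 fold change of Polr3a was 0.28 ± 0.14 (SE, 95% interval -0.03 to 0.59, adjusted p = 0.327 in limma). Polr3b, for RPC2, the other part of the active site, did not separate, with 132 to 167 against 121 to 167 and a log2 fold change of -0.08. Polr3c, Polr3f and Polr3g encode a trimer that opens DNA at initiation. Their log2 fold changes were -0.10, -0.09 and 0.02, and each had overlapping ranges. Polr3gl encodes a paralogue that takes the place of the Polr3g product in an alternative form of the enzyme. Polr3gl was at 94.7, 131 and 162 in controls and 74.1 to 111 in URI(+/D)Hep livers (log2 fold change -0.36, 95% interval -0.82 to 0.10). The ratio of Polr3g to Polr3gl reads was 0.577 ± 0.202 (SD, n = 3) in controls and 0.740 ± 0.173 (SD, n = 5) in URI(+/D)Hep livers, with overlapping ranges.

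The upstream sequence of Polr3e is shown because Polr3e was lower without overlap and because of the gene it adjoins. It lies at chr7:120917528-120917777 (plus strand, GRCm38.p6).
Polr3e: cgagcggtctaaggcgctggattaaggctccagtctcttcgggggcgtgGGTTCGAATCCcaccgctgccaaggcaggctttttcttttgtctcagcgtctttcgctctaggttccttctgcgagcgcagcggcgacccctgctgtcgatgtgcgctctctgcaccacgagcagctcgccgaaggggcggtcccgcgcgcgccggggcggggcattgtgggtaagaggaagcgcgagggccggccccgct
The capitals mark GGTTCGAATCC, from 201 to 191 bases before the start, a match to the B box, the internal promoter element of transfer RNA genes. RefSeq places n-TLaag4, a transfer RNA gene, across this stretch, so that a template of polymerase III adjoins the gene of one of its subunits. The B box pattern was searched on both strands, with any letter at a pair of positions near its end, and was added after this sequence was read. It was in the windows of 34 of 27025 genes, 0.126%, and of 1 of the 22 members with a promoter entry. Transfer RNAs are not captured by oligo-dT priming, and no value for this gene is given.

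Other motifs were searched on both strands in the same 250 bases. CACGTG was in 2 of 22 members (9.09%, against 6.86% of all genes), CCAAT in 7 (31.8%, against 37.5%), GGAAGT in 7 (31.8%, against 22.2%), TGCGCA in 3 (13.6%, against 7.36%) and TATAAA in 2 (9.09%, against 14.3%). A match describes letters in this window only.

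Polymerase I subunits had negative log2 fold changes throughout, most of them within their errors. Polr1a encodes the largest subunit, RPA194, and stood at 186, 186 and 171 normalized reads in controls 1 to 3. In URI(+/D)Hep 1 to 5 it stood at 180.3, 185, 185, 169.5 and 171. The ranges coincided, with a log2 fold change of -0.02 (95% interval -0.25 to 0.20). Polr1b, for the other large subunit, spanned 50.4 to 67.9 against 30.9 to 60.3, with a log2 fold change of -0.26 (95% interval -0.81 to 0.29). The direction of Polr1a changed sign under 5 of 25 alternatives, all within 0.06 of 0.

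Polr1f encodes RPA43, the stalk subunit that meets the initiation factor RRN3. Controls 1 to 3 stood at 506, 510.0 and 532, and the values were 440.2, 414, 433, 470.2 and 458 in URI(+/D)Hep 1 to 5. Every URI(+/D)Hep liver was below every control, and the log2 fold change was -0.22 ± 0.09 (SE, with adjusted p = 0.239 in limma). Polr1e, for RPA49, was at 15.8 to 20.4 in controls and 4.42 to 15.5 in the other livers, on only 5 to 19 reads. Polr1h, for RPA12, was at 46.3 to 63.3 against 31.9 to 64.5, with a log2 fold change of -0.09. The antisense row Polr1has had one of 0.28 (95% interval -0.22 to 0.78). Libraries kept the strand, but whether counting used it has no statement in the sources used here, so reads of Polr1h and Polr1has may not be separate. Cd3eap, chosen after its values were seen because it completes the enzyme, was at 132 to 174 against 142 to 154.

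The pair shared by polymerases I and III encodes the scaffold that corresponds to RPB3 and RPB11. Polr1c stood at 366 in control 1 and at 261 and 247 in controls 2 and 3, against 226 to 312. Polr1d stood at 341 in control 1 and at 246 and 245 in controls 2 and 3, against 209 to 274. Control 1 was the highest library for both, and without it both log2 fold changes were above 0, at 0.07 and 0.01.

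**Figure D3:**
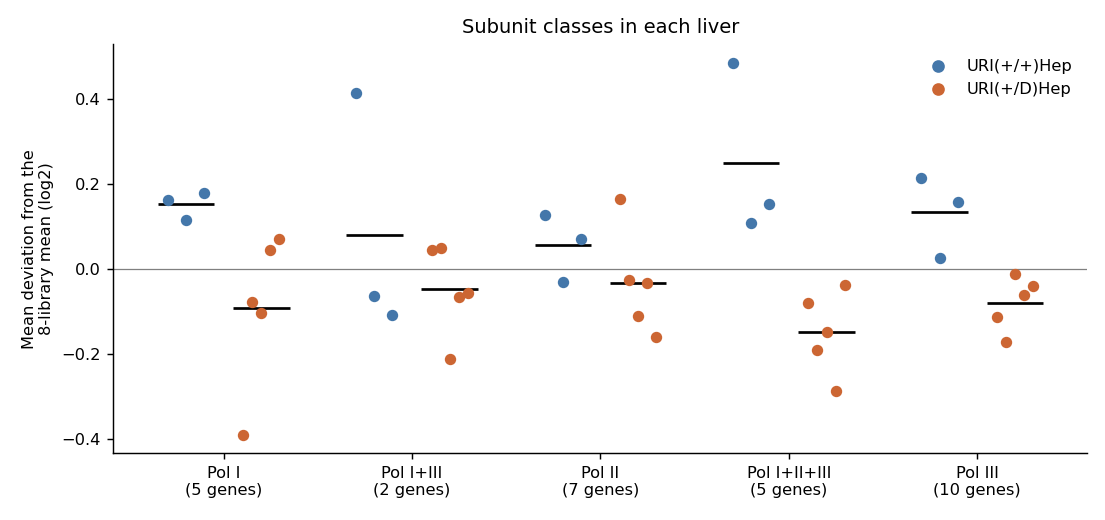
Mean over the genes of a class of log2(value + 1) minus the gene's mean over the 8 livers, with one point per library and bars at the group means. The common subunits (Pol I+II+III), polymerase III and polymerase I lie lower in the URI(+/D)Hep livers without overlap, the polymerase II and I+III classes overlap, and control 1 stands high in the I+III and common classes. The common class includes Polr2k, which passed the filter mainly through the controls.

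Class means in each liver showed where the differences lay. The common subunits stood at 0.48, 0.11 and 0.15 in controls 1 to 3, as deviations from the mean of 8 livers in log2 units, and at -0.29 to -0.04 in the URI(+/D)Hep livers. This mean includes Polr2k, which passed the filter mainly through the controls and so widens the gap, and the mean without it is not given. Polymerase III subunits stood at 0.21, 0.03 and 0.16 against -0.17 to -0.01, and polymerase I subunits at 0.12 to 0.18 against -0.39 to 0.07. In both cases the groups were apart. The -0.39 was that of URI(+/D)Hep 1, where Polr1e, 1 of the 5 polymerase I genes, stood at 4.42 normalized reads, on 5 reads. Polymerase II subunits stood at -0.03 to 0.13 in controls and -0.16 to 0.16 in the other livers, which overlapped. The mean over the proliferation list varied far more, from -2.52 in control 1 to 1.18 in control 3, and from -1.98 to 1.04 in the URI(+/D)Hep livers, and its group ranges overlapped. With that list as a covariate the median log2 fold change of the core subunits was -0.20. Without the 2 livers of lowest Mki67 it was -0.13, with 16 core subunits negative, in a fit that Polr2k did not enter.

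The catalytic cores and the remaining subunits were then set side by side, a grouping made after the values were seen and therefore given without a test. Among the 6 transcripts of the largest pair in each enzyme, 3 had a negative and 3 a positive log2 fold change, with a median of 0.08. Among the other 23 core subunits, 21 had a negative one, with a median of -0.25, where 50.2% of all genes tested were negative. The 23 include Polr2k, which passed the filter mainly through the controls. Their mean deviation was 0.31 in control 1 and 0.05 and 0.17 in controls 2 and 3, against -0.14 to -0.07 in the URI(+/D)Hep livers. Without control 1, 17 of all 29 core subunits were negative. The part of transcript length in this split was not tested. Ratios between transcripts of the same library do not depend on the size factor, and only their difference between groups is read here. The ratio of Polr2a to Polr2e reads was 1.57, 1.71 and 1.504 in controls 1 to 3 and 2.58, 2.73, 2.83, 2.98 and 2.41 in URI(+/D)Hep 1 to 5. Since Polr2a lay above and Polr2e below the controls in every URI(+/D)Hep liver, this ratio had to separate, and it gives the size of the gap only. The ratio of Polr3a to Polr3d was 0.220, 0.234 and 0.295 against 0.355 to 0.553, for which the same holds. The ratio of Polr3a to Polr3b was 0.360 to 0.432 against 0.402 to 0.651, with overlap. For polymerase I the corresponding ratio of Polr1a to Polr1f was 0.321 to 0.367 against 0.361 to 0.447, with overlap. The ratio between the catalytic partners Polr2a and Polr2b was 1.15 ± 0.202 (SD, n = 3) and 1.21 ± 0.125 (SD, n = 5).

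**Figure D4:**
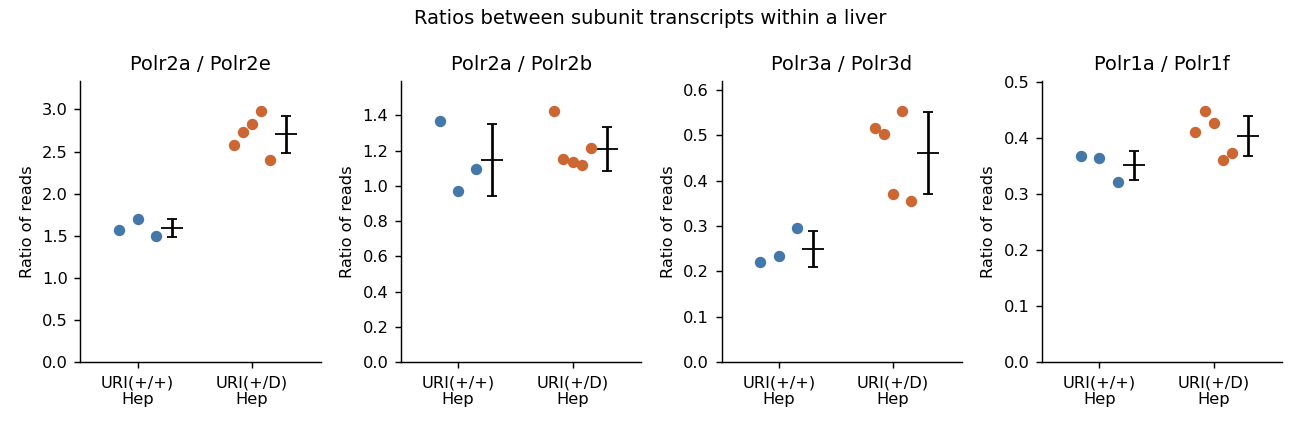
Ratio of reads between 2 subunit transcripts in each liver, with one point per library and the mean ± SD beside the points, on axes that start at 0. Polr2a to Polr2e and Polr3a to Polr3d separate the groups, as their genes do singly, whereas Polr2a to Polr2b and Polr1a to Polr1f overlap.

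Transcript length moved with the group difference across all genes. Of the 12147 tested genes with an annotated coding transcript, those in the lowest of 4 equal bins of length, up to 2039 bases, had a median log2 fold change of -0.13, and the next bins had medians of -0.04, 0.01 and 0.12. Lengths were found for 27 of the 29 core subunits, which is 93.1%. The 13 members in the shortest bin had a median of -0.33, with 12 negative, where 64.9% of all genes of that length were negative. The 5, 6 and 3 members in the longer bins had medians of -0.37, -0.15 and -0.02, each below the median of genes of their length. Spearman's rho between length and log2 fold change was 0.42 across the 27 members and 0.26 across all genes; the genes share the same 8 libraries and are not independent. The part of transcript length in the members' values was not tested further.

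**Figure D5:**
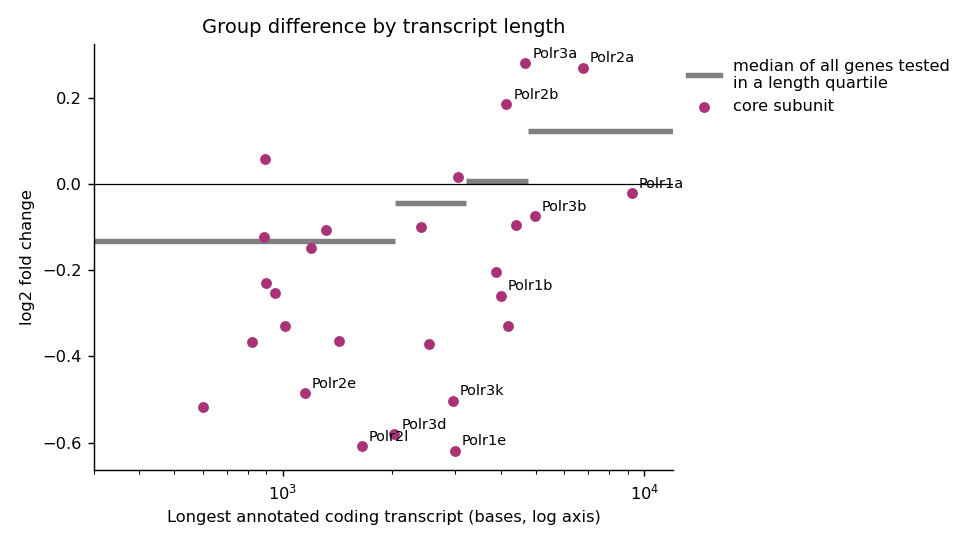
Log2 fold change against the longest annotated coding transcript (log axis, bases) for 27 core subunits, with grey bars at the median of all tested genes in each of 4 equal bins of length. The grey bars climb from -0.13 to 0.12, and most members lie under the bar of their length, 20 of 27, while 7 lie above it: Polr2a, Polr2b, Polr2f, Polr2g, Polr3a, Polr3g and Polr1c.

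Factors that work with the polymerases went in both directions, and 0 genes of these lists were called in limma over all genes. Of 15 measured polymerase III initiation factors and regulators, 10 were negative on the log2 scale, and the median was -0.18. At an unadjusted p under 0.05, 3 of them were higher, against 8.35% of all genes, and 1 was lower, against 9.33%. Bdp1, a subunit of TFIIIB, stood at 293, 309 and 322 in controls and 373 to 447 in URI(+/D)Hep livers (log2 fold change 0.39 ± 0.10 SE, adjusted p = 0.12 in limma and 0.0187 in DESeq2). Gtf3c1, the largest subunit of TFIIIC, had a log2 fold change of 0.40 with ranges of 169 to 257 and 255 to 303. Of 15 polymerase II pausing and elongation factors, 4 were lower and 2 higher at that level, against the same 9.33% and 8.35%. Those of smallest p were subunits of NELF, which holds polymerase II near promoters: Nelfa had a log2 fold change of -0.42 and Nelfcd one of -0.47, both without overlap, while the ranges of Nelfe, of the same complex, overlapped, with a log2 fold change of -0.22 and an unadjusted limma p of 0.287.

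Of 15 assembly and import factors, 2 (13.3%) were lower at an unadjusted p under 0.05, near the 9.33% of all genes, and 0 were higher, against 8.35%. The 2 were Gpn2 and Gpn1, of the GPN GTPases that help carry polymerase II into the nucleus. Gpn2 stood at 205, 149 and 187 in controls against 108 to 147, and Gpn1 at 162 to 234 against 124 to 169, with log2 fold changes of -0.48 and -0.35. Of 18 general initiation factors of polymerase II, 1 was lower at that level: Gtf2h5, the smallest subunit of TFIIH, at 722 to 782 against 522 to 715, with a log2 fold change of -0.40. Gtf2e2, of TFIIE, had one of -0.22. The 7 polymerase I factors had a median of -0.14 and none reached that level, with Taf1d and Taf1b, of the selectivity factor SL1, at -0.35 and -0.41. The 4 measured genes of mitochondrial transcription had a median of 0.22, with Tfb2m at 0.44 and Tfam at 0.26, and the mitochondrial polymerase Polrmt, a single-subunit enzyme outside the families above, at -0.02.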

How the data were processed

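RNA of 8 liver samples was sequenced as 3′ tag libraries with a unique molecular identifier. Tools listed per the submitters' processing notes are bcl2fastq, featureCounts and DESeq2, with build GRCm39. The aligner, annotation, strand setting and use of the identifiers have no statement in the sources used here, and a value may count reads or molecules. The deposited values are signal: gene counts that the authors divided by a size factor per library, which the values themselves show, since division by a library's smallest value gave whole numbers for 100% of values (tolerance 1e-06). The table holds rows with at least 10 reads in all. In URI(+/D)Hep 5 that smallest value is close to 1, which is weaker evidence for single reads.

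Values were tested as log2(value + 1), which understates changes of low genes, with limma 3.58.1 (mean-variance trend) in R 4.3.3 on all 13704 genes with at least 10 in at least 3 libraries, with Benjamini-Hochberg adjustment. The fit was tested on simulated data with a fixed dispersion. It called 28.4% of 1.5-fold, 78.9% of 2-fold and 100% of 4-fold changes, so that most changes of 1.5-fold were missed there. The simulation had 1 dispersion for all genes and no differences in proliferation or Xist between libraries. These rates therefore need not hold for the data. Recovered reads were tested with edgeR 4.0.16 and DESeq2 1.42.0. Replicates are separate samples per the labels, which do not name the animals, so p-values measure the spread between these samples. Transcript lengths came from GENCODE M21 and promoters from RefSeq, matched by symbol for 22 members; both are of GRCm38, so no coordinates were joined to the values.

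The members, classes and lists were chosen with earlier results of these data known. Members named with values were Polr2e, Polr1a, Polr2a and Polr3a, those with an unadjusted p under 0.05 or separate ranges, the 2 of smallest p per class, and others where a role needed them; of each factor list, the 2 of smallest p. Alternatives were a pseudocount of 0.5 or 8, a mean of at least 50 or no filter at all, TMM, quantile normalization, no trend, array quality weights, a replicate block, covariates for the Y-linked share and for proliferation, leaving out each library, edgeR and DESeq2. Added after seeing the data were fits without the 2 livers of lowest Mki67, with the 5 livers holding both Xist and Y-linked reads, where the lone control is taken to vary as URI(+/D)Hep livers do, and the count tests without URI(+/D)Hep 5. A single member enters the counts and medians and is not reported by name here.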

Additional observations from a re-analysis of the deposited data

Results flagged for a closer look

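Polr1e in URI(+/D)Hep 1 stood at 4.42 normalized reads, far below the next liver of its group at 13.9, a gap of 0.857 of the group's range against a critical value of 0.710 in Dixon's test for 5 values. It was the 1 value that stood apart among the 31 members looked at, no more than the 1 in 20 or so that chance gives, and it rests on 5 reads.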

How the results depend on the processing

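No polymerase row was called under any of the 25 alternatives. Of 17 members followed, 14 kept the sign of their log2 fold change under every alternative that gave a value. Polr1a, Polr1c and Polr1d did not. Many of the 17 were followed for a small p or separated ranges in these data. Separated ranges fix the sign when libraries are left out, so this count does not describe the other members. Without control 1, 17 of the 29 core subunits were negative, against 24 in the fit to all livers.

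Over all genes, 2 were called; the count was 4 with a mean of at least 50 and with array quality weights, 0 with quantile normalization, without the trend, with the Y-linked covariate, with the 5 livers holding both Xist and Y-linked reads, and in edgeR without URI(+/D)Hep 5. It was 1 without the livers of lowest Mki67, 389 with the proliferation covariate, 612 in DESeq2 and 378 in DESeq2 without URI(+/D)Hep 5, and 0 to 29 when 1 library was left out, the last without control 3. Members lower at an unadjusted p under 0.05 numbered 4 in DESeq2 without URI(+/D)Hep 5, and 5 to 7 when 1 library was left out. Members higher numbered 2 without the trend and with array weights, 0 with the Y-linked covariate and in the 5 livers, and 0 to 1 when 1 library was left out. Members below the controls numbered 14 in the 5 livers, where 1 control makes separation easier.

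The median of the common subunits was -0.31 with a pseudocount of 8, -0.20 without the livers of lowest Mki67 and -0.21 in the 5 livers. Polr2k did not enter the fits without the livers of lowest Mki67 or in the 5 livers. That of polymerase II was -0.073 with a mean of at least 50 and -0.0746 in the 5 livers. That of polymerase III was -0.14 without the livers of lowest Mki67, and -0.26 to -0.11 when 1 library was left out, the last without control 1. That of the core subunits was -0.16 with array weights, -0.13 without the livers of lowest Mki67, -0.0798 in the 5 livers and -0.24 to -0.11 when 1 library was left out. Polr1a reached 0.0042 with quantile normalization, 0.0014 with the Y-linked covariate, 0.0131 without the livers of lowest Mki67 and 0.0567 in the 5 livers. Polr1c and Polr1d reached 0.0055 and 0.0022 with array weights, 0.0132 and 0.0679 without the livers of lowest Mki67 and 0.0696 and 0.0078 without control 1, and Polr1c 0.1018 in the 5 livers; Polr1d was -0.2302 without control 3. Fits that leave out libraries change the sample number and the livers together, and the cause of these shifts was not tested.

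With the replicate block 0 genes were called, 2 members were lower and 0 higher at an unadjusted p under 0.05, and Polr1a was 0.0209. Same-numbered livers had correlations of -0.40, -0.04 and -0.27, and no control correlated best with its own number. Control 1 correlated best with URI(+/D)Hep 5, the other liver of lowest Mki67. Such correlations also follow other differences between livers, so they cannot decide whether the numbers mark a pairing. Livers 4 and 5 have no control of their number. Members with few reads, Polr2k at 7 to 13 and Polr1e at 5 to 19, are limited by depth.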

Other observations

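The factors given here act on the polymerases, had separated ranges and were picked with their values in view. Nelfb, a further NELF subunit, stood at 197 to 211 normalized reads in controls and 155 to 181 in URI(+/D)Hep livers, with a log2 fold change of -0.28 ± 0.10 (SE, with adjusted p = 0.212 in limma). Supt6, a histone chaperone that travels with polymerase II, stood at 203 to 221 against 230.0 to 269.8, with a log2 fold change of 0.26 ± 0.10 (SE, with adjusted p = 0.221 in limma). Within TFIIIB-type factors, Brf2, which serves polymerase III at genes with external promoters, stood at 79.8 to 116 against 69.4 to 76.4. Gtf3c3, a TFIIIC subunit, stood at 74.4 to 95.5 against 98.4 to 121. None of these passed the adjusted threshold in limma, edgeR or DESeq2.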
